A study of Mus musculus with 12 samples.

Results

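Muscle of wild-type mice at lights off was compared with muscle of wild-type mice at lights on. The comparison used 6 of the 12 libraries of the series, 3 labelled WT at Zeitgeber time (ZT) 12 and 3 labelled WT at ZT0, and was tested over 10415 of the 10475 genes in the deposited table. ZT counts hours from lights on in a cycle of 12 h of light and 12 h of dark. The mice were 8 weeks old, on the C57BL/6 background, fed chow ad libitum and carried no transgene, and the tissue was whole gastrocnemius, a calf muscle of mostly fast fibres. Poly(A)-selected RNA was sequenced with a kit that does not mark strand, and abundances are in transcripts-per-million units (TPM), which scale reads by transcript length and library. The other 6 libraries came from transgenic (TG) mice of the same background and age with E4BP4 overexpressed in the liver, 3 at ZT0 and 3 at ZT12. The promoter of the transgene, the sex of the mice and the day of collection are not given in the sources used here, nor whether each library is 1 mouse. P-values then measure the spread between libraries, part of which may be technical.

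The circadian clock is a feedback loop of transcription. CLOCK and BMAL1 (the product of Arntl) activate the Per, Cry and Nr1d genes through E-box elements, PER and CRY proteins repress that activation, and REV-ERB proteins (from Nr1d1 and Nr1d2) repress Arntl in turn. Skeletal muscle runs its own clock and is also reached by daily rhythms of feeding, activity and glucocorticoid hormone. Mice are active and feed mostly in the dark, so that ZT0 closes the active phase and ZT12 opens it.

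The summed markers of skeletal muscle stood at 99380 to 115131 TPM at ZT0 and at 106305 to 116448 TPM at ZT12, and 0 of the 12 genes of that list passed the test described further on. Reads recovered from the TPM values summed to 9213367, 13149155 and 11533547 at ZT0 and to 20119122, 17715531 and 20157288 at ZT12 in WT, so that depth and time cannot be told apart within this genotype. WT ZT0 replicate 2 stood apart: over genes, its log2 values correlated with those of other WT libraries at a median of 0.946, against 0.983 to 0.986 for the rest, and its summed lymphocyte markers were 1539 TPM against 72.4 to 141 TPM. Among the TG libraries, TG ZT12 replicate 1 was the least like the others, and it enters the estimate of the spread. Erythroid markers were unequal as well, at 181 to 287 TPM at ZT0 and at 2109, 5894 and 297 TPM in WT ZT12 replicates 1, 2 and 3. Of 9 hepatocyte markers 1 was tested, Apoa2, at 3.54 to 21.7 TPM, and 0 of 9 neutrophil markers were among the genes of the table. In WT ZT0 replicate 1 no listed gene lay below 1.0 TPM, and genes silent in that library, which could show only a rise, are therefore not measured here.

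**Figure D1:**
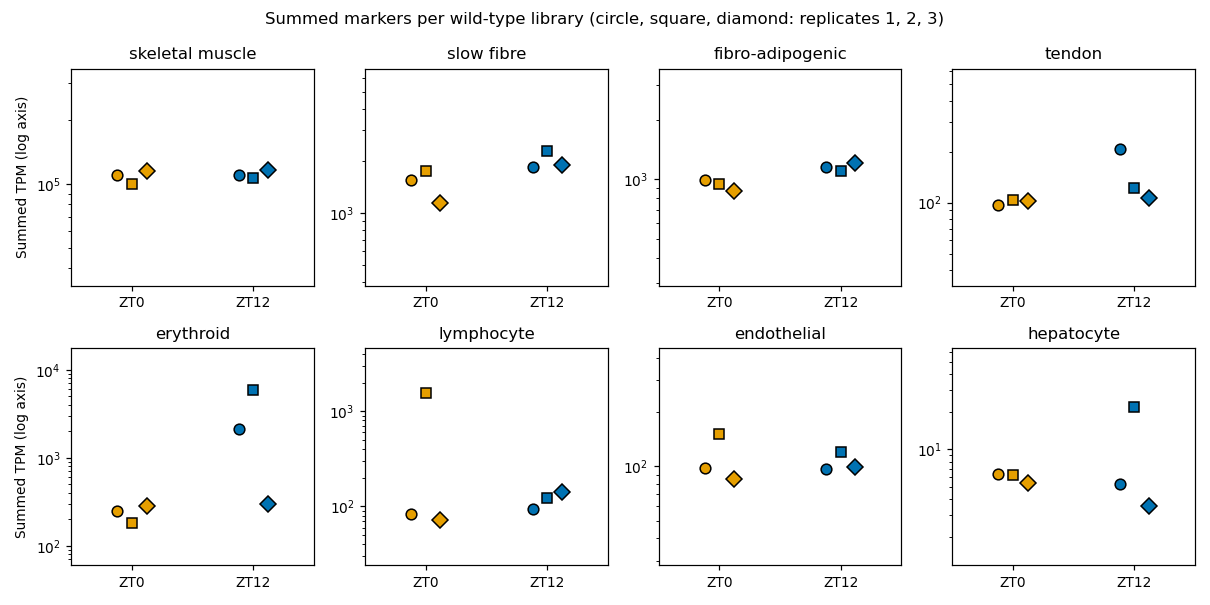
Summed TPM (log axis) of marker genes in each WT library at ZT0 (orange) and ZT12 (blue), with replicates 1, 2 and 3 as circle, square and diamond. Skeletal muscle markers were level, lymphocyte markers stood at 1539 TPM in ZT0 replicate 2 alone, and erythroid markers at 2109 and 5894 TPM in 2 of the 3 ZT12 libraries.

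At lights off, WT muscle held more of the clock repressor Nr1d1 and of the metabolic kinase Pdk4, and less of 10 genes that included the clock repressor Per2, glutamine synthetase (Glul), the alpha-arrestin Arrdc3 and the lipogenic factor Mid1ip1. The 12 changes ran from an 8.24-fold fall of mean TPM in Per2 to a 5.69-fold rise in Nr1d1. They were the genes with an adjusted p under 0.05 in limma (Benjamini-Hochberg over 10415 genes, log2(TPM + 1), 4 group means over 12 libraries), which is 0.115% of the genes, 0.0192% higher and 0.096% lower. In each of the 12 the ZT12 libraries lay wholly on 1 side of the ZT0 libraries. The 12 were picked by the test on these same values, so that this describes them and is no further support. Of all genes, 5.62% had every ZT12 library above every ZT0 library and 5.2% had every one below. With the standard error of the median gene at 0.19 on the log2 scale, its 95% interval reached 0.42 to either side, and 484 genes had an unadjusted p under 0.05.

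Nr1d1 (chromosome 11, 98767932 to 98775377, mm10) encodes REV-ERB alpha. It stood at 12.6, 13.96 and 12.2 TPM in the ZT0 libraries and at 78.4, 62.5 and 79.5 TPM at ZT12. The lowest ZT12 library was several times above the highest ZT0 library, and the log2 difference was 2.41 with a standard error of 0.16 (limma adjusted p = 3.48e-05). Its gene overlaps Thra, a thyroid hormone receptor gene on the opposite strand, and reads of the overlap cannot be assigned to a strand. Thra stood at 31.9 TPM at ZT0 and 49.3 TPM at ZT12 (log2 difference 0.61, limma adjusted p = 0.0872). Per2 (chromosome 1, 91415982 to 91459328), a repressor of CLOCK and BMAL1, stood at 2.70, 3.25 and 2.38 TPM at ZT0 against 0.343, 0.376 and 0.29 TPM at ZT12, a log2 difference of -1.49 with a standard error of 0.15 (limma adjusted p = 0.0013). The difference of log2(TPM + 1) understates a change at such low levels, and the values rest on 41 to 266 reads per library. Per2 was under 1 TPM in all 6 ZT12 libraries of both genotypes and passed the filter (1 TPM in 3 libraries) through the ZT0 libraries alone, so that a gene at its level could be tested only if it was higher at ZT0.

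Pdk4 (chromosome 6, 5483351 to 5496278) phosphorylates and shuts off the pyruvate dehydrogenase complex, sparing glucose when fatty acids are burned. It stood at 20.5, 29.5 and 39.2 TPM at ZT0 against 88.8, 141 and 97.8 TPM at ZT12 (log2 difference 1.86, SE 0.27, limma adjusted p = 0.0178). The replicates spread more than for Nr1d1 but did not overlap. The highest value was in WT ZT12 replicate 2, the WT library with the most erythroid RNA, and without it the limma adjusted p was 0.118. Erythroid markers were at 2109, 5894 and 297 TPM in WT ZT12 replicates 1, 2 and 3. In TG ZT12 replicates 1, 2 and 3, Pdk4 was at 71.8, 123 and 120 TPM. Erythroid markers there were at 4019, 6221 and 257 TPM. The call was also lost without WT ZT12 replicate 1 or 3 or WT ZT0 replicate 1 (limma adjusted p from 0.0551 to 0.0875). The part of blood in the Pdk4 values was not tested.

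Glul, Mid1ip1 and Adh1 were among the 10 genes that fell. Glul (chromosome 1, 153899929 to 153909723), which makes glutamine from glutamate and ammonia, stood at 130, 139 and 141 TPM at ZT0 against 41.2, 48.5 and 45.9 TPM at ZT12 (log2 difference -1.57, SE 0.21, limma adjusted p = 0.0112). Mir8114 is annotated over the first bases of Glul (153899926 to 153900036, same strand) and stood 2.95-fold lower in mean TPM at ZT12 (limma adjusted p = 0.134), beside 3.02-fold for Glul, from reads that cannot be assigned to one or the other. Mid1ip1 (chromosome X, 10717365 to 10719702), whose protein promotes the assembly of acetyl-CoA carboxylase, stood at 34.3, 30.1 and 26.1 TPM at ZT0 against 10.4, 11.3 and 8.48 TPM at ZT12. Its log2 difference was -1.49 (SE 0.17, limma adjusted p = 0.00446), with a gap between the groups wider than either group. Adh1 (chromosome 3, 138277645 to 138290691), an alcohol dehydrogenase that also oxidizes retinol, stood at 19.1, 19.1 and 20.1 TPM at ZT0 against 8.55, 11.7 and 8.20 TPM at ZT12 (log2 difference -0.98, SE 0.13, limma adjusted p = 0.0113). Leaving out 1 WT library other than ZT0 replicate 2 lifted the limma adjusted p of Glul to between 0.0584 and 0.0832. For Adh1 it was 0.079 to 0.0942 without ZT0 replicate 1 or 3 or ZT12 replicate 1 or 3, while Mid1ip1 passed each time.

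The other genes that fell were Arrdc3, Mylk4, Angptl7, Nmb, Cys1 and Odf3l2. Arrdc3 (chromosome 13, 80883422 to 80896043), an alpha-arrestin that links membrane receptors to ubiquitin ligases, stood at 19.8, 20.6 and 16.8 TPM at ZT0 against 6.14, 5.44 and 7.11 TPM at ZT12 (log2 difference -1.47, SE 0.13, limma adjusted p = 0.000389). Mylk4 (chromosome 13, 32700827 to 32781779), a member of the myosin light chain kinase family, was the most abundant of the 12, at 445, 488 and 423 TPM at ZT0 and 196, 196 and 144 TPM at ZT12. Its adjusted p of 0.0499 in limma lay at the threshold, and without any single WT library it was above it. Angptl7 (chromosome 4, 148495280 to 148500462), a secreted angiopoietin-like protein, stood at 19.3, 18.2 and 21.5 TPM at ZT0 against 6.64, 4.85 and 3.34 TPM at ZT12 (log2 difference -1.83, SE 0.24, limma adjusted p = 0.0109). Nmb (chromosome 7, 80902227 to 80905062), which encodes the neuropeptide neuromedin B, stood at 9.71, 6.76 and 7.85 TPM at ZT0 against 2.18, 2.64 and 3.13 TPM at ZT12. Cys1 (chromosome 12, 24665838 to 24681795), for cystin, a protein of cilia, stood at 3.13, 3.06 and 2.04 TPM at ZT0 against 0.787, 0.557 and 0.651 TPM at ZT12, from 21 to 79 reads per library, and like Per2 it passed the filter through the ZT0 libraries alone. Odf3l2 (chromosome 10, 79639526 to 79645738), of the outer dense fibre family, stood at 26.4, 19.6 and 36.4 TPM at ZT0 against 9.49, 8.33 and 8.93 TPM at ZT12, the widest relative spread at ZT0 among the genes that fell. The limma adjusted p of these 3 genes ran from 0.0109 for Nmb to 0.0402 for Odf3l2. Arrdc3 passed with any 1 library left out. The largest adjusted p with 1 WT library left out was 0.0769 for Angptl7 and 0.0842 for Cys1 (both without ZT12 replicate 3), 0.0732 for Nmb (without ZT0 replicate 1), and 0.197 for Odf3l2 and 0.275 for Mylk4 (both without ZT12 replicate 3), all by limma. Odf3l2 also lost its call under each of 4 other scalings (adjusted p of 0.0935, 0.0808, 0.0853 and 0.0519 by limma with median-of-ratios, upper-quartile and quantile scaling and by limma-voom), and Nmb under quantile normalization (limma adjusted p = 0.0692).

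**Figure D2:**
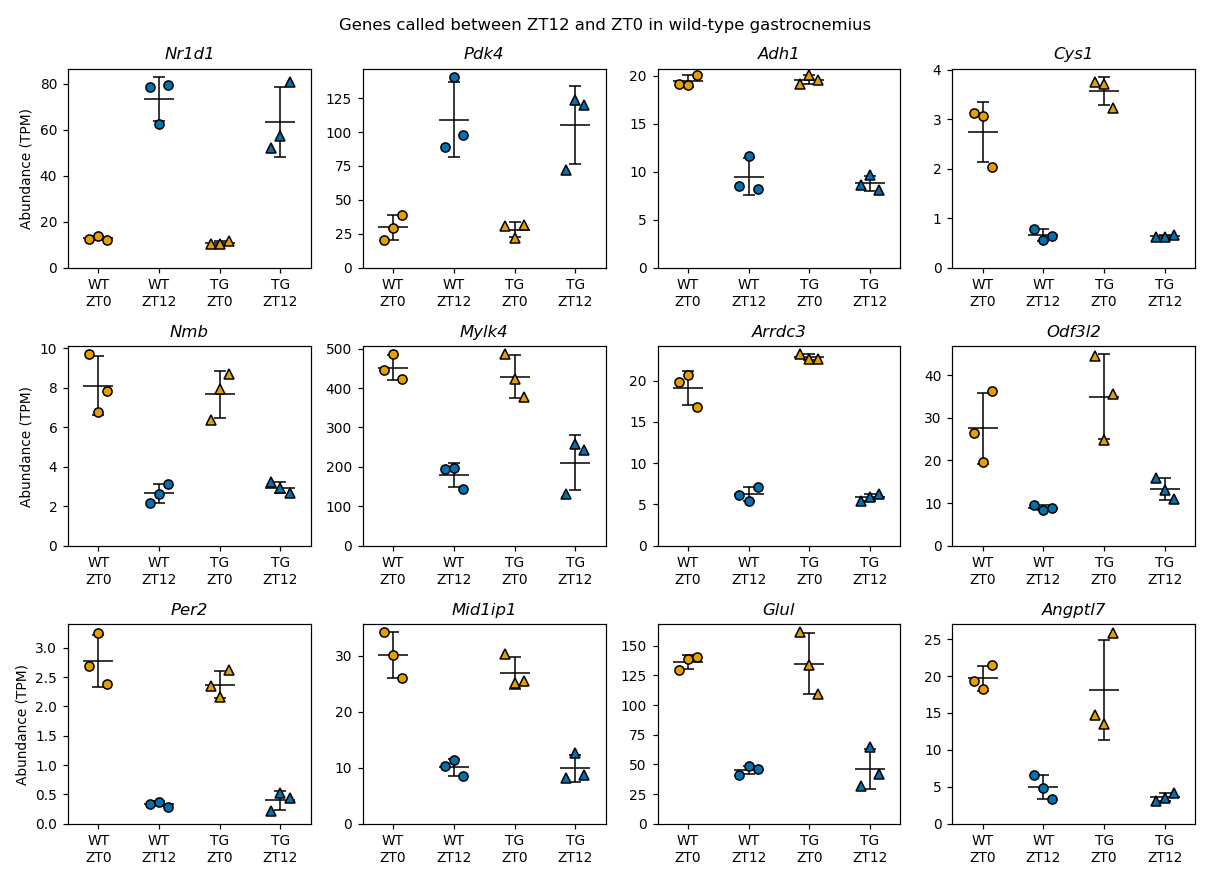
TPM of the 12 genes called in WT, in every library of the 4 groups (points: libraries; bar and whiskers: mean and SD; ZT0 orange, ZT12 blue; WT circles, TG triangles; linear axes from 0). In each panel the 3 ZT12 points lie apart from the 3 ZT0 points in WT, and again in TG.

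The same time contrast in TG mice uses 6 other libraries, so that its differences are a second measurement of these genes. Its test is not separate, because the spread of each gene was estimated from all 12 libraries. Genes called in WT thus tended to have a small spread in TG too, which favours TG groups apart and calls in TG. Per2 and Cys1, under 1 TPM in every ZT12 library of both genotypes, passed the filter through the ZT0 libraries alone. For genes at their level the filter favoured values higher at ZT0, in TG too. With these 2 counted, all 12 differed in the same direction in TG, all 12 had TG groups that did not overlap, against 3.21% of all genes apart upwards and 3.87% apart downwards in TG, and 10 of the 12 passed the test in TG. The test called 16 genes in TG, 4 higher (0.0384% of those tested) and 12 lower (0.115%), 0.154% in all. The 2 that did not were Mylk4 (TG log2 difference -1.07, limma adjusted p = 0.151) and Odf3l2 (-1.31, limma adjusted p = 0.0692). Nr1d1 differed by 2.41 in WT and 2.42 in TG, Pdk4 by 1.86 and 1.84, and Glul by -1.57 in both. The median of the 10 genes that fell was -1.48 in WT and -1.34 in TG. The difference between the genotypes was called for 0 of 10415 genes by limma (69 with an unadjusted p under 0.05), and limma-voom also called 0. The smallest unadjusted p among the 12 was 0.0978 for Arrdc3 by limma (difference 0.32, SE 0.18, interaction adjusted p = 1.00).

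**Figure D3:**
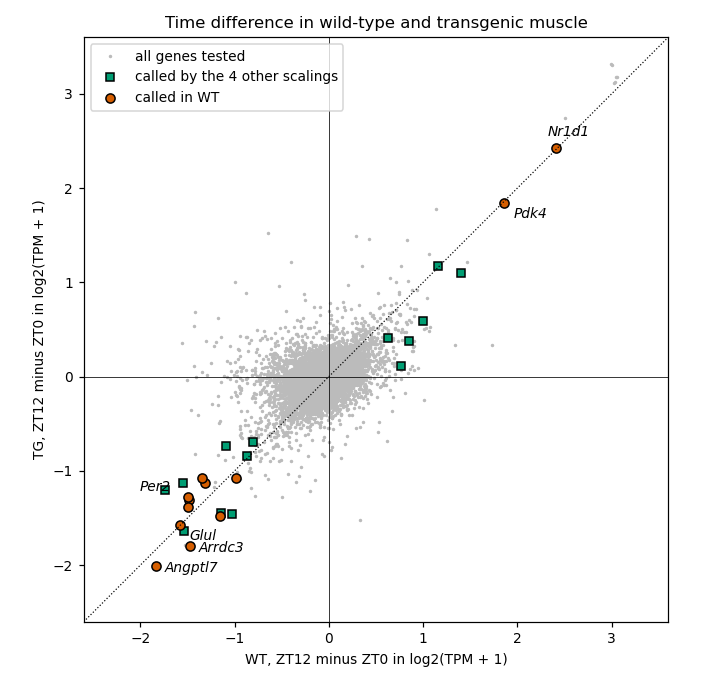
Difference of log2(TPM + 1) between ZT12 and ZT0 in WT (x axis) and TG (y axis) for 10415 genes, with the 12 genes called in WT in orange, 14 further genes called under other scalings in green and the line of equality dotted. The 12 genes lie near the line, from -1.83 and -2.01 for Angptl7 to 2.41 and 2.42 for Nr1d1.

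The promoters of Glul, Mid1ip1 and Adh1 are shown because these genes passed the test and their windows hold one of the clock or glucocorticoid motifs that were searched, from 250 bases before to 50 after the start site in RefSeq (GRCm38, the mm10 assembly). The capitals mark the motif.
Glul: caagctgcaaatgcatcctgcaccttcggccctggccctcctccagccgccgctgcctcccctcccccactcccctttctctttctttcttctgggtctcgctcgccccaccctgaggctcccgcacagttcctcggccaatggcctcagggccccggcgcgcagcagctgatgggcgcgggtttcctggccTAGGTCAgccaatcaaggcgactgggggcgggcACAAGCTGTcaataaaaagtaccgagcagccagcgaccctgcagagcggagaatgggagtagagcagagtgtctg
Mid1ip1: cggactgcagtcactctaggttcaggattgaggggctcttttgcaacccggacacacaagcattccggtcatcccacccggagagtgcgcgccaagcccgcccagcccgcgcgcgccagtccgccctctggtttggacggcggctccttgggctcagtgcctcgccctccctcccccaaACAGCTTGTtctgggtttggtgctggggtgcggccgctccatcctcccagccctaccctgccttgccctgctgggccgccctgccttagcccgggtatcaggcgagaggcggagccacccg
Adh1: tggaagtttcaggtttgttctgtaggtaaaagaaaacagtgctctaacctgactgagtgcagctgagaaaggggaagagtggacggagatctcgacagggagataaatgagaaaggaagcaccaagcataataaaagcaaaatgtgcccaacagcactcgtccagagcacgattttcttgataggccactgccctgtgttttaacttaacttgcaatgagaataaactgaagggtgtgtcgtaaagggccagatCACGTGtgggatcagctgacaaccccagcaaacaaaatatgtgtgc
The Glul window (chr1:153899679-153899978, plus strand) holds a match to the ROR and REV-ERB element beginning 58 bases before the start site and one to the spaced glucocorticoid element beginning 25 bases before it. The Mid1ip1 window (chrX:10717115-10717414, plus strand) holds a match to the glucocorticoid element beginning 71 bases before the start site. The Adh1 window (chr3:138277335-138277634, plus strand) holds an E-box beginning 4 bases after the start site that RefSeq gives. This window ends before the gene start given above for Adh1, 138277645, so that the E-box lies upstream of that start.

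The motifs, read on both strands, were the E-box CACGTG, the ROR and REV-ERB element TAGGTCA or TGGGTCA, the D-box TTATGTAA or TTACGTAA, the glucocorticoid element ACANNNTGT and the cAMP element TGACGTCA. They do not overlap one another in the 3 windows. Of the 12 genes, 10 had a promoter in the RefSeq table, all but Per2 and Odf3l2. An E-box was in 1 of the 10, against 12.3% of 7968 tested genes with a promoter and 7.15% of all 32851 promoters. The ROR and REV-ERB element was in 1 of the 10 (6.16% of tested genes, 6.45% of promoters), and the glucocorticoid element was in 2 of the 10 (4.83% and 6.85%). The D-box (0.828% and 1.06%) and the cAMP element (3.78% and 1.79%) were in none. Of 15 core clock genes with a promoter, 4 held an E-box (Per1, Cry1, Tef and Bhlhe41) and 2 a ROR and REV-ERB element (Arntl and Nfil3). These are matches of letters, not shown sites of binding.

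Of 20 core clock genes, 18 were tested, and 1 rose (Nr1d1) and 1 fell (Per2), against 0.115% of all genes. The counts were 3 and 1 under median-of-ratios scaling and under quantile normalization, 2 and 1 under upper-quartile scaling, 2 and 3 by limma-voom and 4 and 4 with array weights. Those settings called more of all genes too. The shares were 0.528% with median-of-ratios, 0.499% with quantile and 0.451% with upper-quartile scaling, and 0.538% by limma-voom. Array weights called the most genes of any setting, as counted in the closing section. The WT groups did not overlap in 4 clock genes higher at ZT12 and 7 lower, beside 5.62% and 5.2% of all genes. The activators stood higher at ZT12: Arntl at 4.52, 5.39 and 3.75 TPM at ZT0 and 8.06, 8.98 and 7.60 TPM at ZT12, and Clock at 2.72, 3.76 and 2.30 TPM and 5.42, 4.87 and 4.40 TPM. Neither gene overlapped between the times, and neither passed in limma (log2 difference 0.74, adjusted p = 0.556, and 0.60, adjusted p = 0.999), while Arntl passed under median-of-ratios scaling (limma adjusted p = 0.0421). The repressor Bhlhe40 stood at 22.0, 26.2 and 26.9 TPM at ZT0 against 47.0, 36.7 and 46.0 TPM at ZT12 (log2 difference 0.76, limma adjusted p = 0.0872), and passed under the 4 other scalings (limma adjusted p = 0.0338 with median-of-ratios scaling, 0.021 by limma-voom). Bhlhe40 had a difference of 0.11 in TG, and the genotypes differed with an unadjusted p of 0.00965 in limma (adjusted p = 1.00). Its kin Bhlhe41 ranged from 11.2 to 17.0 TPM at ZT0 and from 16.7 to 19.9 TPM at ZT12.

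The other Period genes lay lower at ZT12 and passed by limma-voom (adjusted p of 0.0321 for Per1 and 0.0431 for Per3) but not in the TPM values as deposited. Per1 stood at 3.45, 5.58 and 5.23 TPM at ZT0 against 2.18, 1.55 and 2.14 TPM at ZT12 (log2 difference -0.95, limma adjusted p = 0.108), and Per3 at 3.01, 4.66 and 3.35 TPM and 2.38, 1.504 and 1.53 TPM (-0.74, limma adjusted p = 0.232). Among the PAR bZIP activators of D-box genes, Hlf stood at 5.52, 4.44 and 4.72 TPM at ZT0 against 3.16, 1.71 and 2.24 TPM at ZT12 (-0.83, limma adjusted p = 0.143), and did not overlap. Dbp and Tef overlapped between the times, at 48.1 to 51.5 TPM and 73.9 to 84.9 TPM at ZT0 against 33.3 to 50.3 TPM and 67.6 to 74.3 TPM at ZT12. Their rival at D-boxes, Nfil3, which encodes E4BP4, stood at 16.9, 18.7 and 16.0 TPM at ZT0 against 7.40, 13.95 and 13.97 TPM at ZT12 (-0.56, limma adjusted p = 1.00). The ZT12 libraries lay below the ZT0 libraries, with replicate 1 well under the other 2.

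Other clock genes stood closer together at the 2 times. Nr1d2, the paralog of Nr1d1, stood at 23.8 to 25.3 TPM at ZT0 and at 19.8 to 23.98 TPM at ZT12, where Nr1d1 rose 5.69-fold. Cry1 and Cry2, whose groups were apart downwards, had log2 differences of -0.30 and -0.46, Rora of -0.20, and the casein kinases Csnk1d and Csnk1e, which phosphorylate PER proteins, of -0.12 and -0.18. The sign for Csnk1d turned to 0.07 with both outlying libraries left out. None of these passed with 3 libraries a group, and hours between ZT0 and ZT12 were not sampled.

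**Figure D4:**
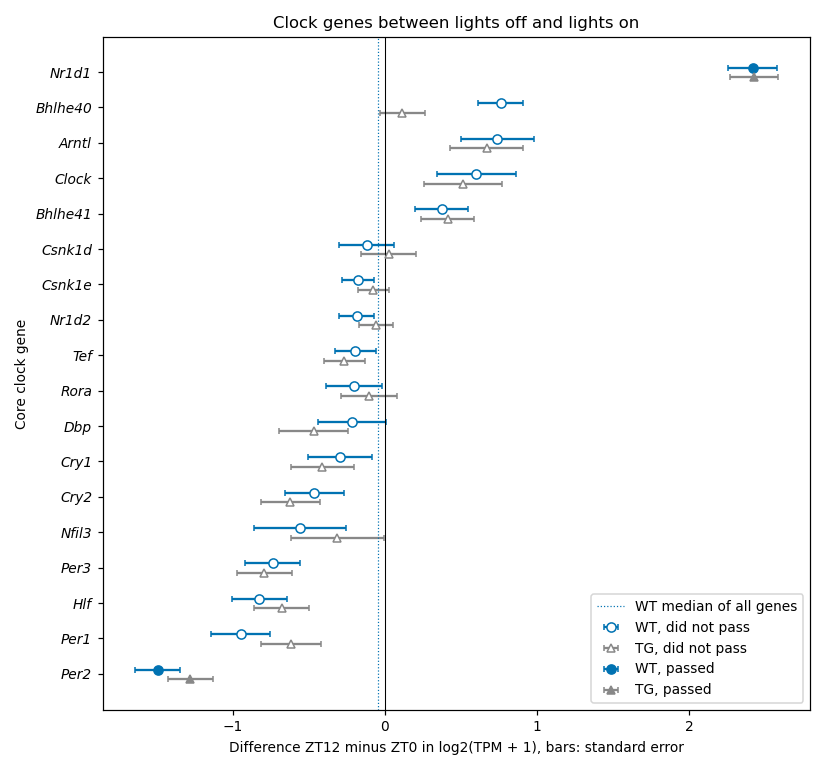
Difference of log2(TPM + 1) between ZT12 and ZT0 for 18 core clock genes in WT (blue circles) and TG (grey triangles), with standard errors. Filled symbols passed limma at an adjusted p under 0.05, as Nr1d1 and Per2 did in both genotypes, and the dotted line is the WT median of all genes, -0.05.

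More genes were called under other scalings of the same libraries. Median-of-ratios scaling called 55 genes (0.528%), 29 higher (0.278%) and 26 lower (0.25%). Upper-quartile scaling called 47 (0.451%), 24 higher (0.23%) and 23 lower (0.221%), and quantile normalization called 52 (0.499%), 25 higher (0.24%) and 27 lower (0.259%). With limma-voom on recovered reads the count was 56 (0.538%), 23 higher (0.221%) and 33 lower (0.317%). All 4 called 34 genes in common, 0.326% of those tested, of which 10 are among the 12, all but Odf3l2 and Nmb. With both TG ZT12 replicate 1 and WT ZT0 replicate 2 left out, limma called 72 genes (0.693%), 44 higher (0.423%) and 28 lower (0.269%), the 12 among them. The median difference of all genes was then 0.08 in place of -0.05.

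The 14 genes of smallest p among those called by the 4 other scalings alone gave further names, though none passed in the TPM values as deposited. They were Bhlhe40, described above, and 13 others. Col5a3, a chain of collagen V, stood at 2.86, 3.20 and 2.64 TPM at ZT0 against 7.01, 9.18 and 6.99 TPM at ZT12 (log2 difference 1.16, limma adjusted p = 0.0503), and Fbn1, the microfibril protein fibrillin 1, at 2.76, 3.10 and 2.77 TPM and at 8.09, 10.2 and 9.62 TPM (1.41, limma adjusted p = 0.0653). Both differed alike in TG, by 1.17 and 1.10. Txnip, an alpha-arrestin that restrains glucose uptake, stood at 123, 132 and 107 TPM at ZT0 against 226, 210 and 215 TPM at ZT12 (0.85, limma adjusted p = 0.0635). Its difference in TG was 0.38, with groups that overlapped. Its reads overlap Gm15441 on the opposite strand. The magnesium transporter gene Slc41a3 (0.63) and the LIM-domain gene Lmcd1 (1.00) also stood higher.

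The rest stood lower at ZT12. Fmo1 and Fmo2, flavin-dependent monooxygenases that neighbour each other on chromosome 1, stood 2.00-fold and 2.37-fold lower in mean TPM at ZT12, and Inmt, an N-methyltransferase of indole amines, 2.29-fold lower. G0s2, an inhibitor of the triglyceride lipase ATGL, stood at 53.0, 35.4 and 28.5 TPM at ZT0 against 9.60, 19.8 and 9.84 TPM at ZT12 (log2 difference -1.53, limma adjusted p = 0.0779). Slc25a30, a mitochondrial carrier, stood at 11.5, 9.01 and 7.24 TPM and at 1.70, 2.41 and 2.01 TPM (-1.74, limma adjusted p = 0.0635), a wide gap over 68 to 217 reads. The corepressor Tle4 (-0.81) and the glucocorticoid receptor co-chaperone Fkbp5 (-1.10) were the others, beside Mir8114. In the TG libraries all 34 common genes had the WT sign, and 11 of the 14 higher and 18 of the 20 lower were apart the same way, against 3.21% and 3.87% of all genes. These genes too were called with a spread estimated over both genotypes, which favours groups apart in TG.

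Glucocorticoid-responsive genes, which a steroid that peaks near the onset of activity in mice induces, held 2 of the 10 falls. Of 22 tested, 0 rose and 2 fell (Glul and Arrdc3), 7 were apart downwards and 0 upwards, beside 0.096% of all genes called lower, 5.2% apart downwards and 5.62% upwards. The median was -0.20 against -0.05 over all genes, with 9 members above 0 and 13 below, beside 39.8% of all genes above 0. Members of this and the other lists were chosen with earlier results of these data known. Counts of calls in the lists therefore describe them and do not test them. Tsc22d3, a classical target, stood at 177, 135 and 152 TPM at ZT0 against 74.7, 88.4 and 88.3 TPM at ZT12 (-0.87, limma adjusted p = 0.0779, and 0.0431 by limma-voom). Fkbp5 stood at 24.6, 26.7 and 26.3 TPM and at 13.5, 12.1 and 9.46 TPM. Both stood higher at ZT0 in every WT library, while in TG the Fkbp5 groups overlapped. The median was -0.07 without WT ZT0 replicate 2, where that of all genes was 0.08, and -0.32 without replicate 1, where that of all genes was -0.09. Without TG ZT12 replicate 1, with or without WT ZT0 replicate 2, the test called 5 members, all lower. Calls over all genes rose as well, from 12 to 35 without TG ZT12 replicate 1. Without both libraries there were 72 (0.693%), of which 28 were lower (0.269%).

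Fatty acid oxidation and PPAR target genes held 1 rise, Pdk4, in 25 tested, with 8 apart upwards, 1 downwards and a median of 0.22, beside 0.0192% of all genes called higher, 5.62% apart upwards and 5.2% downwards. Plin5, a lipid droplet protein of oxidative tissue, stood at 3.58, 3.32 and 3.18 TPM at ZT0 against 6.38, 9.83 and 4.73 TPM at ZT12 (0.82, limma adjusted p = 0.513), and Mlycd, which degrades malonyl-CoA, at 35.6, 36.5 and 32.2 TPM and at 50.1, 50.5 and 43.4 TPM (0.45, limma adjusted p = 0.418). The median of the list was 0.11 without WT ZT12 replicate 2 and 0.32 without replicate 3, where those of all genes were -0.07 and -0.02. The list of lipid and sterol synthesis leaned the other way, with 1 fall (Mid1ip1) in 19 tested, 6 apart downwards (5.2% of all genes), 0 upwards (5.62%) and a median of -0.22. Thrsp, the Spot 14 partner of Mid1ip1, stood at 32.4, 43.8 and 38.4 TPM at ZT0 against 13.4, 16.6 and 17.8 TPM at ZT12 (-1.21, limma adjusted p = 0.312), and the triglyceride synthase gene Dgat2 at 18.3, 30.3 and 17.0 TPM and at 11.5, 16.8 and 8.51 TPM. The synthesis median was -0.07 without WT ZT0 replicate 2 and -0.44 without replicate 3, where those of all genes were 0.08 and -0.13.

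In glucose handling, 0 of 26 tested genes passed, with 2 apart upwards and 8 downwards (5.62% and 5.2% of all genes) and a median of -0.12. Under median-of-ratios scaling 1 was called higher and 1 lower, and by limma-voom 1 and 2, with Txnip the higher one in both and Pfkfb4 among the lower by limma-voom (adjusted p = 0.0472). Of all genes, 0.278% were called higher and 0.25% lower under median-of-ratios scaling, and 0.221% and 0.317% by limma-voom. Pfkfb3 and Pfkfb4 encode the bifunctional enzymes that set fructose 2,6-bisphosphate, the activator of glycolysis, and stood on opposite sides. Pfkfb3 stood at 8.68, 30.2 and 21.2 TPM at ZT0 against 97.0, 39.6 and 85.0 TPM at ZT12 (1.89, limma adjusted p = 0.143), with a wide spread at both times. Pfkfb4 stood at 31.8, 28.5 and 29.8 TPM and at 17.9, 21.1 and 19.6 TPM (-0.60, limma adjusted p = 0.208). Neither gene overlapped between the times. The list's median was -0.07 without WT ZT0 replicate 2 or WT ZT12 replicate 3, where those of all genes were 0.08 and -0.02. Of 16 genes of amino acid catabolism 1 fell, Glul, counted above with the glucocorticoid genes as well, beside 0.096% of all genes called lower. The groups were apart upwards in 1 and downwards in 4. The proline dehydrogenase gene Prodh stood lower at ZT12 (-0.83) and the large neutral amino acid transporter gene Slc43a1 higher (0.59), neither passing.

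Contractile and load-related genes showed few calls. Fast-fibre genes had a median of 0.00 over 17 tested, and Mylk4 was the 1 that fell, beside 0.096% of all genes called lower. The groups were apart upwards in 1 and downwards in 2. Of 11 genes responsive to mechanical load 0 passed, 7 were apart upwards and 2 downwards (5.62% and 5.2% of all genes), and the median was 0.35. Ankrd23, an ankyrin-repeat protein of the sarcomere, stood at 964, 1037 and 824 TPM at ZT0 against 1760, 1611 and 1442 TPM at ZT12 (0.77, limma adjusted p = 0.0653, and 0.0303 with median-of-ratios scaling), Ankrd1 at 2.25, 1.09 and 1.13 TPM and at 5.12, 3.24 and 3.84 TPM, and Ankrd2 at 44.4, 36.8 and 25.6 TPM and at 54.8, 71.7 and 64.1 TPM. All 3 stood higher at ZT12 in each WT library, while in TG the Ankrd2 groups overlapped. The myogenic factor Myod1, a known clock output in muscle, stood at 22.9, 26.1 and 18.4 TPM and at 6.76, 11.8 and 9.22 TPM (-1.21, limma adjusted p = 0.232, and 0.0456 with median-of-ratios scaling), and the titin cap gene Tcap at 3552, 2835 and 3449 TPM and at 2693, 2244 and 2158 TPM (-0.47, limma adjusted p = 0.852). Fbxo32, the atrophy ubiquitin ligase subunit, stood at 23.2, 23.95 and 20.2 TPM and at 45.6, 34.7 and 36.6 TPM (0.76, limma adjusted p = 0.187, and 0.0281 with median-of-ratios scaling).

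Slow-fibre genes had a median of 0.53, with 12 of 13 higher and 0 called, and the size of this median rested on single libraries. In the ZT0 libraries their TPM summed to 1536, 1741 and 1137, and in the ZT12 libraries to 1827, 2269 and 1896. The median became -0.04 with ZT0 replicate 3 left out and 0.21 with ZT12 replicate 3 left out, where those of all genes were -0.13 and -0.02. In TG the slow-fibre median was 0.06, with 8 higher and 5 lower. Mitochondrial respiration genes, 26 in all, had a median of 0.08 with 21 higher and 0 called, and a range of -0.14 to 0.24. Their median was 0.02 without WT ZT12 replicate 2 and 0.05 without WT ZT0 replicate 2, where those of all genes were -0.07 and 0.08. In TG the median of these genes was -0.04, with 6 higher and 20 lower. Interferon genes had a median of -0.42, which was -0.78 and -0.71 without WT ZT0 replicates 1 and 3 and 0.24 without replicate 2, whose interferon sum was 808 TPM against 131 to 200 TPM in the other WT libraries. Lymphocyte markers, 4 tested, had a median of -0.80 with that library and 0.58 without it, and adipocyte markers of -0.29 and 0.07.

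Matrix genes lay higher at ZT12 as a list while none passed in the TPM values as deposited, and 1, Fbn1, passed under each of the 4 other scalings. Of 26 tested, 25 stood higher, 14 were apart upwards and 0 downwards, against 39.8% of all genes above 0 and 5.62% apart upwards, and the median was 0.39. Decorin (Dcn), a collagen-binding proteoglycan, stood at 216, 186 and 190 TPM at ZT0 against 271, 246 and 260 TPM at ZT12 (0.39, limma adjusted p = 0.312), and the elastin cross-linking enzyme gene Loxl1 at 7.23, 7.59 and 6.37 TPM and at 10.5, 12.0 and 13.3 TPM (0.68, limma adjusted p = 0.59). The median was 0.34 to 0.52 without any single library. Markers of the fibro-adipogenic cells that make much of this matrix also stood higher, though the lists are not separate, since Dcn is on both. All 11 markers stood higher, 5 were apart upwards, and their sum was 867 to 996 TPM at ZT0 and 1100 to 1208 TPM at ZT12. Tendon markers summed to 96.9 to 104 TPM at ZT0 and to 207, 122 and 106 TPM at ZT12, with Thbs4 and Kera highest in WT ZT12 replicate 1. Of 8 tendon markers tested 7 stood higher and 0 were called higher. The other, Angptl7, was called lower (-1.83), beside 0.096% of all genes called lower. In bulk tissue a larger share of such cells and more RNA per cell cannot be told apart, and their part in the matrix values was not tested. In TG the matrix median was 0.17 and the fibro-adipogenic median -0.08. The genotype difference had a limma unadjusted p of 0.00643 for Dcn and 0.00664 for the fibro-adipogenic marker Serpinf1, and an adjusted p of 1.00 for both.

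**Figure D5:**
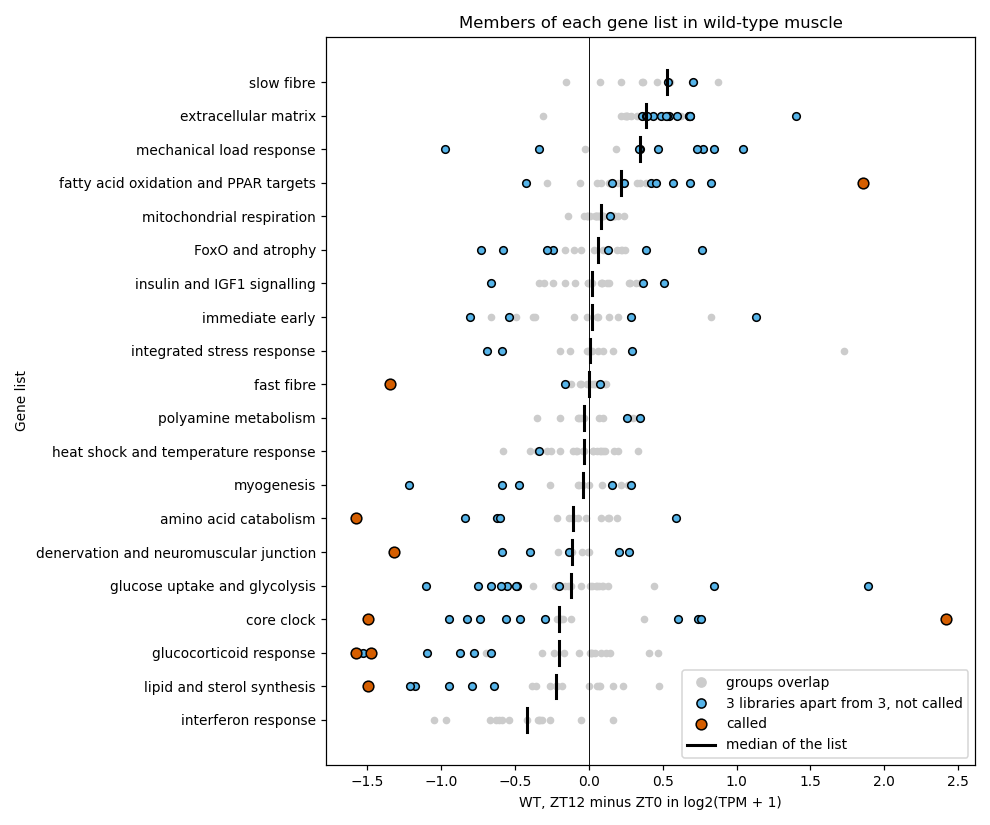
Difference of log2(TPM + 1) between ZT12 and ZT0 in WT for each tested member of 20 gene lists (points), with the median as a bar. Blue points have 3 libraries apart from 3, orange points passed limma, grey points overlap, and the medians run from -0.42 for interferon genes, a value set by 1 library, to 0.53 for slow-fibre genes.

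The lists left had few or no calls in WT. Neuromuscular genes held 1 fall in 11 tested, Nmb, which is a neuropeptide gene, beside 0.096% of all genes called lower. The groups were apart upwards in 2 and downwards in 4, beside 5.62% and 5.2% of all genes. Musk, the kinase of the synapse, stood lower (-0.59, not passing). Insulin and IGF1 signalling (23 tested), heat shock (22), immediate early (16), integrated stress response (12), polyamine (11) and FoxO and atrophy genes (16) held 0 calls each, with medians from -0.03 to 0.07, apart from Fbxo32 under other scalings. Without WT ZT0 replicate 2 the insulin median was 0.28 and the immediate early median 0.24, beside 0.08 for all genes. Without WT ZT0 replicate 3 they were -0.01 and -0.16, beside -0.13, so that the signs of these medians rest on single libraries. Among them Fos stood at 1.46, 1.84 and 2.53 TPM at ZT0 against 4.47, 8.38 and 4.07 TPM at ZT12, and Jun at 39.1, 54.9 and 33.6 TPM and at 22.2, 30.6 and 19.0 TPM, so that partners of the AP-1 factor lay on opposite sides, neither passing. Chac1, a glutathione-degrading enzyme gene of the stress response, ranged from 5.20 to 54.5 TPM within ZT0 and from 32.3 to 103 TPM within ZT12.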

How the data were processed

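Poly(A) RNA of gastrocnemius from 12 mouse libraries (WT and TG, ZT0 and ZT12, 3 each) was profiled. Per the submitters' processing notes, bcl2fastq, STAR, HOMER 4.11.1 and DESeq2 were used on mm10. The deposited TPM table was made by the authors, and the 2 further deposited tables, per the file headers, come from HOMER exon counts per time. Their per-library log2 values, log2 fold changes, p-values and adjusted p-values, all the authors', were not used; only lengths and coordinates were taken from them.

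The log2(TPM + 1) values of genes reaching 1 TPM in 3 or more libraries were fitted with limma 3.58.1 (R 4.3.3, with a trend), 4 group means in 1 fit. Calls had a Benjamini-Hochberg adjusted p under 0.05. The script was tested on simulated data. Multiplying TPM by the lengths of the ZT0 table recovered reads: with a single factor for each library, 98.6 to 98.8% of the values judged came within 0.1 of a whole number. Sequences are RefSeq's, from GRCm38. Named genes were all called genes, up to 14 called under all 4 other scalings, all clock genes, and the up to 3 members of smallest p of each other list. Some genes are not reported here. Members and lists were chosen with earlier results of these data known. Replicate numbers did not pair the libraries. Figures were made with Python 3.11.15 and matplotlib 3.10.9.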

Additional observations from a re-analysis of the deposited data

How the results depend on the processing

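The WT count of 12 became 55, 47 and 52 under median-of-ratios, upper-quartile and quantile scaling, 56 with limma-voom, 25 with the 10 highest genes removed and 394 with array weights. It was 72 with TG ZT12 replicate 1 and WT ZT0 replicate 2 both left out, an alternative chosen after seeing the data. The TG count of 16 became 31, 29, 33, 28 and 527 under the same scalings, voom and weights, 3 with the TG libraries alone, and 71 without those 2 libraries. The interaction count of 0 became 9 with array weights and was 0 in every other alternative. The weights were estimated gene by gene, because the default estimate did not converge, and their own error is not in the p-values. Leaving out single libraries gave 4 to 35 calls in WT, 6 to 21 in TG and 0 for the interaction. In WT these were 4, 15 and 6 without ZT0 replicates 1, 2 and 3, 6, 6 and 5 without ZT12 replicates 1, 2 and 3, and 35 and 22 without TG ZT12 replicates 1 and 2. No filter, a filter of 5 TPM and pseudocounts of 0.1 and 5 gave 13, 10, 13 and 11 calls in WT, and the WT libraries alone gave 13, of which 7 were among the 12. With the replicate block the counts were 15 in WT, 18 in TG and 0 for the interaction, and Mylk4 no longer passed (adjusted p = 0.0637 in limma). Same-numbered libraries had residual correlations of -0.35 to 0.29, and 6 of 12 were closest to their own number.

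Nr1d1, Arrdc3 and Mid1ip1 passed in each of 24 alternatives and Per2 in each of the 23 that tested it. The other 8 genes kept their sign in each alternative and lost the call in 55 refits between them, mostly with a library left out. Cys1, with few reads, had a standard error of 0.15 in WT, beside 0.19 for the median gene. The log2(TPM + 1) scale compresses both differences and spread at such low levels.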
